A study of Rattus norvegicus with 9 samples.

Results

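The response examined here is that of rat liver to 6.5 Gy of total body irradiation (TBI) when the rats had first been given Hong Shan Capsule (HSC), a preparation of medicinal herbs. A total of 3 treatment labels occur in the series, and each stands for 3 male Wistar rats with 1 liver array per rat. The control rats received neither HSC nor radiation. The TBI rats received 6.5 Gy at 2 Gy/min from a cobalt source. The HSC + TBI rats were given HSC by stomach tube on 3 consecutive days and then the same exposure. Livers were taken 24 h after exposure. The dose of HSC is written in 2 ways, as 30 mg/kg/day in the sample labels and as 10 g/kg/day in the methods, and it entered no calculation. No rats given HSC without radiation were analysed here, so what HSC did and what radiation did cannot be told apart in the comparison of HSC + TBI with control. The irradiated rats were also placed in containers for the exposure and the controls were not.

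The comparison used the 6 arrays of HSC + TBI and control rats out of 9. Its members were 23565 of 41012 probes, each well above background throughout the control group, throughout the HSC + TBI group, or both. Of these, 21826 passed on all 6 arrays. Another 529 entered only through the control arrays and 1210 only through the HSC + TBI arrays. The 1161 probes just outside, above background on 2 of 3 arrays of a group at best, had a median log2 signal of 3.87, beside 4.26 for those that entered through 1 group and 7.55 for those above background on all 6 arrays. A gene name could be given to probes of 9053 tested genes, and the brightest probe stood for each gene. All levels below are normalized log2 signals, in which a step of 1 is a doubling, and all differences are log2 fold changes of HSC + TBI over control unless another pair is named.

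Ionizing radiation breaks DNA, and the damage stabilizes p53, a transcription factor that turns on genes for cell cycle arrest, repair and cell death. Most hepatocytes are quiescent, so cycling cells in the adult liver are few, while lymphocytes in liver blood and sinusoids are among the most radiosensitive cells of the body. The liver also holds Kupffer cells, its resident macrophages, and cells of all kinds respond to interferon, which switches on a shared set of antiviral genes.

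The shape of the response was lopsided: fewer genes were higher than lower after HSC + TBI. A probe was called when limma gave a Benjamini-Hochberg adjusted p under 0.05 and the fold change was at least 1.5. By this rule 884 probes were called, or 3.75% of those tested, with 329 higher (1.4%) and 555 lower (2.36%). A separation of the groups is more common than a call, and 7786 tested probes (33%) did not overlap between them. Among named genes 400 were called (4.42%), with 121 higher (1.34%) and 279 lower (3.08%), and among the 8556 named genes above background on all 6 arrays 324 were called (3.79%). The called decreases were also deeper, with a median of -1.52 against 0.98 for the called increases. Of 211 probes that changed at least 4-fold, 42 were higher and 169 lower. These medians and counts include probes whose size is not a fold of measured levels. Of the called decreases 89 were dim in every HSC + TBI rat, and of the called increases 33 were dim in every control rat. Whether the decreases were deeper without such probes was not tested. When the test was limited to the probes that passed on all 6 arrays, it called 268 higher and 419 lower. Over those 8556 genes the median difference was 0.017, and 52.0% of them lay above 0. Leaving out 1 rat moved the probe count both ways. It fell to 439 (control 2), 404 (control 3), 361 (HSC + TBI 1), 424 (HSC + TBI 2), 543 (HSC + TBI 3) or 854 (TBI 2). It rose to 1005 (control 1), 1179 (TBI 1) or 1065 (TBI 3). A smaller set of 146 genes (1.61% of those tested) was called with all rats and whichever of the 9 rats was left out, with 38 higher and 108 lower.

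No slide held arrays of more than 1 group. HSC + TBI 2 lay apart from HSC + TBI 1 and 3, while control rats shared 1 slide and TBI rats another, so that slide and group cannot be told apart. Probes well above background made up 56.6% to 59.3% of the control arrays, 58.7% to 60.5% of the HSC + TBI arrays and 63.6% to 69.5% of the TBI arrays. Nothing in the labels says whether rats of a group were treated on separate occasions, and p-values measure the spread between these rats.

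The 36 lists of genes by function or cell type, chosen with earlier results of these data known, cover part of the response. They held 94 of the 400 called named genes (15.7% of 599 tested), and 306 were in no list (3.62% of 8454 tested). Of the 884 called probes, 395 had no gene name. Among the lists, the p53 targets held the most increases. Of 22 tested members, 14 rose and 1 fell (1.34% and 3.08% of all named genes did so), and the median difference of the 22 was 1.09, beside 0.017 over all genes. A total of 9 of these members remained called whichever rat was left out. Cdkn1a, which encodes the cyclin-dependent kinase inhibitor p21, had log2 signals of 7.98, 8.22 and 8.81 in the control rats, 13.44, 13.64 and 14.04 in the TBI rats, and 13.56, 13.09 and 13.001 in the HSC + TBI rats. Every irradiated liver stood far above every control liver, with no overlap. The difference of HSC + TBI from control was 4.88 (standard error 0.25, adjusted p = 5.53e-05 by limma), or 29.4-fold.

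Gdf15, a secreted stress hormone of the TGF beta family, stood at 5.70, 6.60 and 6.19 in control rats and at 10.07, 9.84 and 10.73 after HSC + TBI. The groups were again wide apart, and the difference was 4.05 (standard error 0.28, adjusted p = 1.96e-04). Ccng1, encoding cyclin G1, went from 8.58, 9.09 and 8.60 to 11.14, 11.48 and 11.32, a difference of 2.55. Phlda3, an inhibitor of Akt signalling, went from 6.19, 6.27 and 6.68 to 8.93, 8.51 and 9.21, a difference of 2.50. Both held whichever rat was left out. The antiproliferative gene Btg2 rose by 2.44, but not without control 3 or HSC + TBI 1. The apoptosis nuclease gene Aen rose by 1.62 (standard error 0.11), with values of 8.12 to 8.22 in control and 9.62 to 9.86 in HSC + TBI rats.

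Genes of p53 feedback and of cell death also rose. Mdm2, the ubiquitin ligase that limits p53, rose by 1.24 and Bax, a pore former of mitochondrial apoptosis, by 1.21. Tp53inp1 rose by 1.56, Zmat3 by 1.14 and the death receptor gene Fas by 1.16 (Fas not without control 3, HSC + TBI 1 or HSC + TBI 2). Smaller increases were called for Plk2 (1.04), Sesn2 (0.91) and Ei24 (0.66), and each of them was lost without control 3, HSC + TBI 1 or HSC + TBI 2 and 2 to 3 other rats. Bbc3, encoding the death protein Puma, was not called, with a difference of -0.04, and neither were Ppm1d (0.22), Fdxr (-0.20), Rrm2b (0.07) or Perp (0.04). Xpc, a sensor of helix distortion in nucleotide excision repair that p53 is known to activate, fell by 0.88 and was not called without control 2, control 3, HSC + TBI 1 or HSC + TBI 2.

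Repair genes split. Of 22 tested members of the repair and damage signalling list, 2 rose and 3 fell, all 5 called whichever rat was left out, while the median of the list was -0.12. Mgmt, which removes alkyl groups from guanine, had signals of 11.57, 12.01 and 11.79 in control rats and 13.87 to 14.16 after HSC + TBI, without overlap. The difference was 2.22 (standard error 0.15, adjusted p = 1.88e-04). Nhej1, a factor of DNA end joining, rose by 2.78, from 5.32 to 5.50 in control rats up to 7.69 to 8.93. A further probe of Nhej1 differed by 0.59 and was not called, so the size for this gene depends on the probe. Rad54l, which acts in homologous recombination, fell by 1.42, and the replicative DNA ligase gene Lig1 by 0.91. Atm, the kinase that signals double-strand breaks, differed by -0.18 and was not called.

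**Figure D1:**
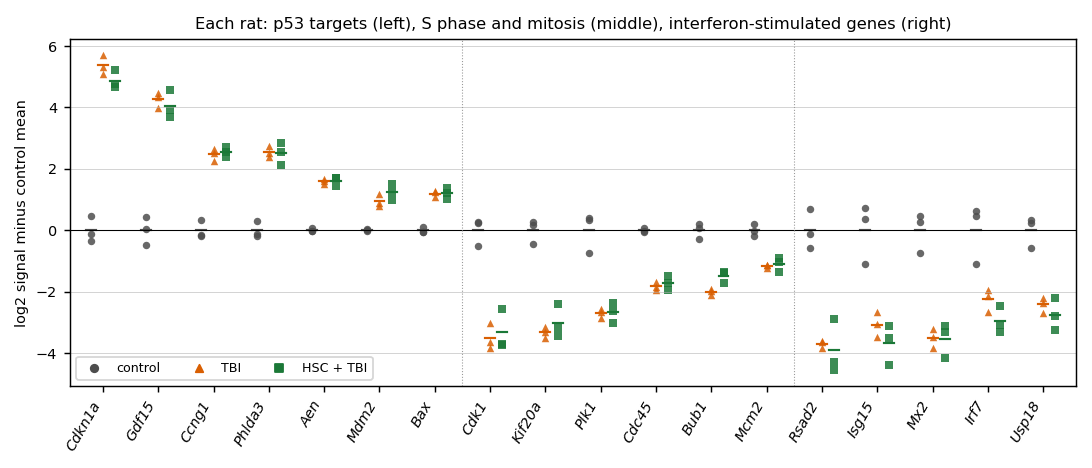
Log2 signal of 18 genes in each of the 9 rats, drawn as the difference from the mean of the 3 control rats (y axis), with a short bar at each group mean. Cdkn1a lies 4.88 above the control mean after HSC + TBI, and Rsad2 and Isg15 lie 3.90 and 3.67 below it.

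Of 24 tested genes of DNA replication and mitosis, 14 fell, 1 rose and 9 were not called. Of the 15 calls 11 held whichever rat was left out, and the median of the 17 members above background on all 6 arrays was -0.96. A total of 7 of the 24 had entered the test only through the control arrays, so their count in the lower direction was in part set by the filter. Of the 17 others, 9 fell and 1 rose. Cdk1, the kinase that drives entry into mitosis, had signals of 8.84, 9.59 and 9.61 in control rats and 5.66, 5.62 and 6.79 after HSC + TBI. The highest irradiated liver lay well below the lowest control, and the difference was -3.33 (standard error 0.36, adjusted p = 0.00196). Its promoter is shown because Cdk1 was the called member with the largest decrease whose upstream sequence holds a CCAAT box. This box, here CCAAT or its reverse complement ATTGG, is a textbook element of mitotic gene promoters. The letters are those of RefSeq for assembly GRCr8, 250 bases upstream of the annotated start, 5′ to 3′, with each CCAAT box in capitals.
Cdk1, chr20:19265043-19265292, plus strand: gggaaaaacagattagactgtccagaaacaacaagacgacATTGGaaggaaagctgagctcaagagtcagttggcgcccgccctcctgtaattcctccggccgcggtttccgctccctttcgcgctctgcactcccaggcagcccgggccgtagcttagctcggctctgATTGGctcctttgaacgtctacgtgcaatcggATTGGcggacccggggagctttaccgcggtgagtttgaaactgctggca

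The Cdk1 promoter held 3 such boxes. Of the 12 called members of the list with a promoter in the reference, 8 held at least 1, or 66.7%, beside 34.2% of 27457 promoters in all and 36.5% of those of tested genes. A match describes these letters and is not a measured binding site.

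The mitotic kinesin gene Kif20a went from 7.31, 7.92 and 7.999 to 4.57, 4.30 and 5.34, a difference of -3.01. Plk1, a kinase of spindle assembly, went from 7.75, 8.83 and 8.88 to 5.46, 5.87 and 6.12, a difference of -2.67. In each the groups were separate by a wide margin. Cyclin genes were near background after HSC + TBI. Ccnb2, a cyclin B, lay at 6.08, 6.46 and 6.57 in control rats and was not well above background in any HSC + TBI liver, which makes it at least 6.72-fold lower, and Ccna2 and Ccnb1 were above background in 1 of 3 HSC + TBI livers. Outside the list, Ttk of the spindle checkpoint and the kinesin gene Kif22 were at least 6.84-fold and 6.97-fold lower. Ttk and Kif22 entered the test only through the control arrays, so their direction was in part set by the filter. Of the replication genes, Mcm6 was at least 3.15-fold lower, Cdc45 fell by 1.71, Mcm2 by 1.10 and Prim1 by 0.70, the last not without HSC + TBI 1 or HSC + TBI 2. Ccna2 was not called without control 3, and neither were Birc5 and Tpx2 of the spindle, which also needed control 2, TBI 2 and each HSC + TBI rat.

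Tyms, which makes thymidylate for DNA synthesis, was the member that rose, by 1.02 in all 3 HSC + TBI rats (8.16, 8.25 and 8.16 against 7.11, 7.11 and 7.31 in control rats). Pcna (-0.40), Aurka (-0.28), Pola1 (-0.38) and Mcm7 (-0.34) were not called.

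The interferon-stimulated genes held the most decreases of the 36 lists. All 30 tested members had a difference below 0, 25 of them fell, 0 rose, and the median was -1.81. These genes act against viruses in many ways: by degrading RNA, blocking translation or tagging proteins. A total of 17 of the 25 remained called whichever rat was left out. Rsad2, encoding the antiviral enzyme viperin, had signals of 10.07, 11.35 and 10.55 in control rats, 7.06, 6.82 and 7.01 in TBI rats and 6.10, 6.38 and 7.78 in HSC + TBI rats. No irradiated liver reached a control liver, and HSC + TBI differed from control by -3.90 (standard error 0.44, adjusted p = 0.00233). Isg15, a ubiquitin-like modifier, fell by 3.67, from 14.005, 15.84 and 15.49 to 10.72, 11.60 and 11.99.

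Promoters of 3 members are shown, the called ones with the largest decreases whose upstream sequence holds an interferon-stimulated response element, written here as GAAA, any 2 bases and GAAA again, on either strand. They are RefSeq sequences of GRCr8, 250 bases upstream of the annotated start, 5′ to 3′ on the strand of the gene, with the element in capitals.
Rsad2, chr6:48788121-48788370, minus strand: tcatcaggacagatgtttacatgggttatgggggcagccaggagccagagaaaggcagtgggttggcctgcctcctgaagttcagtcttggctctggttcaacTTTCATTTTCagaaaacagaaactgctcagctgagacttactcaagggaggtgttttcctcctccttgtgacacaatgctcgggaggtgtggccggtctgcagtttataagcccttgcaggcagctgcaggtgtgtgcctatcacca
Cxcl10, chr14:15988816-15989065, plus strand: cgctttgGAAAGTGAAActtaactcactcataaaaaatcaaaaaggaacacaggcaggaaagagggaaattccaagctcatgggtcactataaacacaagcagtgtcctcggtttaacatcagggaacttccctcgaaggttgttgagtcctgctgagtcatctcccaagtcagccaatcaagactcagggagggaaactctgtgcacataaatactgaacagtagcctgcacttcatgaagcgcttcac
Irf7, chr1:205800024-205800273, minus strand: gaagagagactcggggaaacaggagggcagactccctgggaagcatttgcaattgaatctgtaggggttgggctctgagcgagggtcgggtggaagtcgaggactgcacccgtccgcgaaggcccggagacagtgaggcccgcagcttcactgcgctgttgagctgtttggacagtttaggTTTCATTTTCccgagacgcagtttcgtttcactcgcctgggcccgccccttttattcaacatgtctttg

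The element began 147 bases before the start in Rsad2, 243 in Cxcl10 and 69 in Irf7. Of the 17 called members of the list that have a promoter in the reference, 12 held the element (70.6%), beside 3.32% of all promoters and 3.06% of those of tested genes. Among the promoters of all genes called lower it was 26 of 223 (11.7%), and among those called higher 2 of 97 (2.06%). The 26 include the 12 list members, so their share is no separate observation. Of the members without it, Oasl and Mx1 fell by 3.55 and 2.93, so the letters were not shared by all.

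Among regulators of the pathway, Irf7, the factor that amplifies interferon production, went from 13.29, 15.002 and 14.85 to 11.08, 11.30 and 11.91, a difference of -2.96. Irf9, a DNA-binding factor of interferon signalling, fell by 0.88, and the RNA sensor gene Ifih1 by 0.79. Neither was called without control 2, control 3, HSC + TBI 1 or HSC + TBI 2, nor Ifih1 without control 1, TBI 2 or HSC + TBI 3. Mx2, a dynamin-like antiviral GTPase, fell by 3.54, the ubiquitin-like protease gene Usp18 by 2.75 and the nucleotide kinase gene Cmpk2 by 3.02. Stat2 (-0.50) and Trim25 (-0.48) were not called. Control 1 had the lowest control signal for Rsad2, Isg15 and Irf7, and the list mean was 10.53 in control 1 against 11.22 and 11.45 in control 3 and control 2. Over the list the control means still lay above the HSC + TBI means of 8.80 to 9.33.

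Antigen processing for MHC class I, which interferon also controls, showed fewer calls. All 9 tested members had differences below 0, with a median of -0.52, and 2 fell: Psmb9, an immunoproteasome subunit, by 1.37 and Tap1, a peptide transporter, by 1.11. Neither was called without control 2, control 3 or any HSC + TBI rat, nor Psmb9 without TBI 2. The class I light chain gene B2m differed by -0.22 and was not called.

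For MHC class II, which antigen-presenting cells use, 0 of 6 tested members were called and 0 had an unadjusted p under 0.05 by limma, although every HSC + TBI rat lay below every control rat in all 6, a separation that 35.7% of named genes showed in one direction or the other. Cd74, the invariant chain, had signals of 11.82, 12.41 and 12.57 in control rats, 10.83, 15.27 and 15.37 in TBI rats, and 10.43, 10.48 and 10.31 in HSC + TBI rats. The HSC + TBI livers were the lowest of all, while TBI 2 and TBI 3 lay far above the controls and TBI 1 below them. The difference of HSC + TBI from control was -1.86 (standard error 1.02, adjusted p = 0.345), in a fit whose spread includes the TBI rats. RT1-Db1 (-1.82), RT1-Da (-1.64) and RT1-Bb (-1.48) had the same order of rats. With only the 6 arrays of the compared groups in the fit, 4 of the 6 members were called lower, and so were 4 with TBI 1 left out. The median of the list was -1.56 after HSC + TBI and 1.64 after TBI.

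Of 26 tested chemokine and cytokine genes 6 fell and 0 rose, with a median of -0.57. Cxcl10, the interferon-induced attractant of T cells, went from 10.63, 11.27 and 10.88 to 7.40, 8.02 and 8.19, a difference of -3.06. Ccl3, a macrophage chemokine, went from 9.15, 10.13 and 9.83 to 7.07, 7.28 and 7.15, a difference of -2.54. Ccl2, the main attractant of monocytes, went from 7.10, 7.57 and 7.21 to 5.16, 5.55 and 5.77, a difference of -1.80 (standard error 0.18, adjusted p = 0.00138). These 3 held whichever rat was left out and did not overlap with the controls. Ccl4 (-2.01), Xcl1 (-1.81) and the B cell attractant gene Cxcl13 (-1.61) were called with all rats. Without control 3, HSC + TBI 1 or HSC + TBI 2 none of these was called, nor Xcl1 and Cxcl13 without control 2, nor Ccl4 and Cxcl13 without HSC + TBI 3. Cxcl2, a neutrophil attractant, was 0.77 and not called, and Il1b differed by -0.39.

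**Figure D2:**
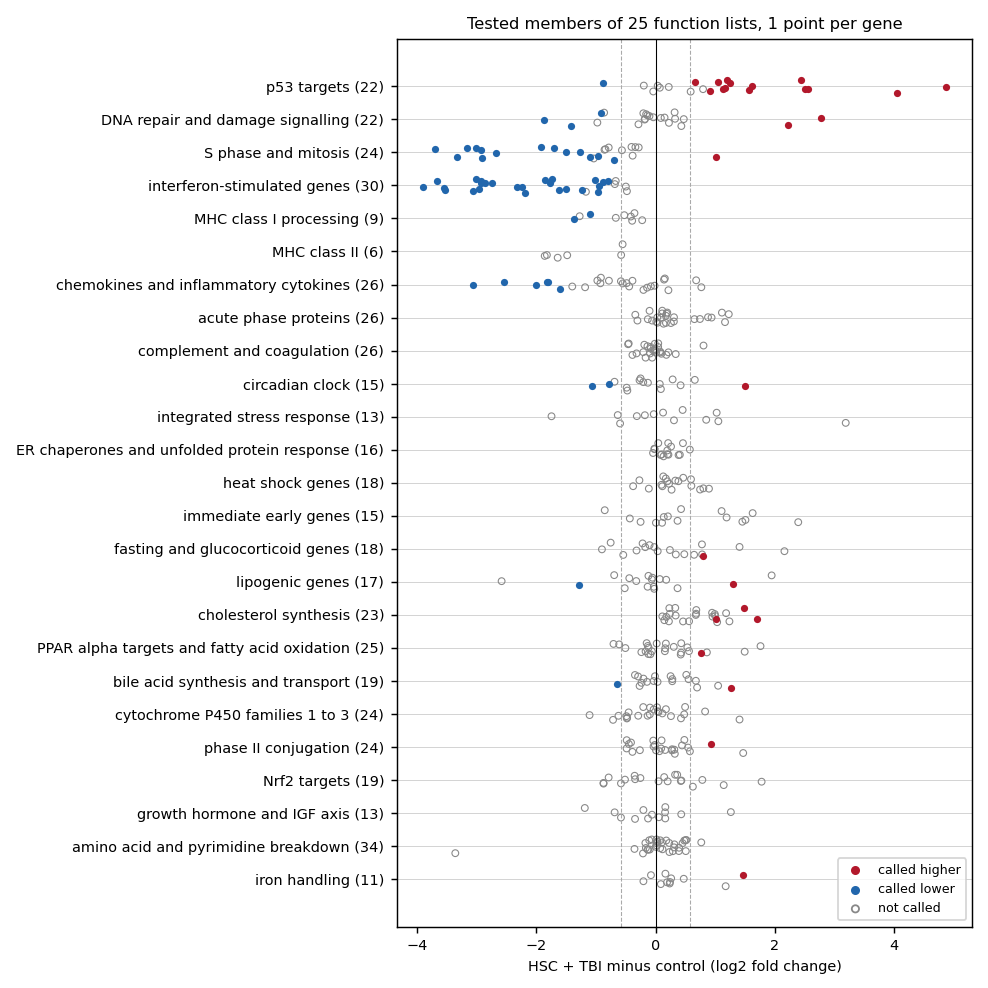
Difference of HSC + TBI from control (x axis, log2 fold change) for the tested members of 25 function lists (y axis), with the number tested in parentheses. Filled points were called and dashed lines mark 1.5-fold. Within these lists, the called genes lie mostly among the p53 targets on the right (14 of 22) and among the cell cycle and interferon lists on the left (14 of 24 and 25 of 30). Of all called named genes, 306 were in no list and are not drawn.

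By cell type, some markers of lymphocytes fell and no hepatocyte marker was called. Of the 15 hepatocyte markers 0 were called by limma and 0 had an unadjusted p under 0.05, at differences from -0.27 to 0.51 and a median of 0.03. Alb, encoding albumin, differed by 0.08. All 15 were well above background on all 6 arrays, as the label of liver requires. The mean log2 signal of these markers was 16.02 to 16.07 in control and 16.04 to 16.16 in HSC + TBI rats. In bulk tissue, fewer cells of a type and less RNA per cell cannot be told apart.

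Of 10 general leukocyte markers all lay below 0, with a median of -0.97, and 2 fell, of which Cd52 (-1.76) was lost on leaving out any rat other than TBI 1 or TBI 3. Coro1a, an actin regulator of blood cells, had signals of 10.37, 10.84 and 10.83 in control rats, 8.93, 9.80 and 9.43 in TBI rats and 8.16, 8.23 and 8.18 in HSC + TBI rats. The 3 groups did not overlap, and HSC + TBI differed from control by -2.49 (standard error 0.22, adjusted p = 6.9e-04). Coro1a was not called in the direct test of HSC + TBI against TBI. Ptprc, encoding the pan-leukocyte protein CD45, went from 7.28, 8.18 and 7.63 to 6.40, 6.02 and 6.79 and was not called by its brightest probe (-1.29, adjusted p = 0.0687). Another of its probes was called at -1.28.

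T cell genes fell too. Of 11 tested T cell markers 5 fell and 0 rose. A total of 4 of the 11 had entered the test only through the control arrays, so their direction was in part set by the filter. Of the T cell markers above background on all 6 arrays, Cd6, Zap70 and Lat were called. Cd3g, a chain of the T cell receptor complex, had signals of 7.04, 7.28 and 7.06 in control rats and was not well above background in any HSC + TBI liver, so that it was at least 11.4-fold lower (adjusted p = 1.96e-04). Cd6, a T cell adhesion receptor, went from 6.93, 7.34 and 7.01 to 5.48, 5.25 and 5.45, a difference of -1.70 that held whichever rat was left out. Zap70 (-1.62) and Lat (-1.23), both of proximal receptor signalling, were called with all rats but not without control 2, control 3, HSC + TBI 1 or HSC + TBI 3, nor Zap70 without HSC + TBI 2. Cd3d was at 8.37, 8.92 and 8.69 in control and 7.69, 8.31 and 7.71 in HSC + TBI rats and was not called, and Cd4 differed by -0.13.

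B cell and natural killer cell genes were lower too. Of 6 tested B cell markers 3 fell. A total of 3 of the 6 had entered only through the control arrays, among them Cd79b and Fcrla, so their direction was in part set by the filter. Of the B cell markers above background on all 6 arrays, only Pou2af1 was called. Pou2af1, a coactivator of B cell genes, went from 7.25, 6.68 and 6.46 to 4.36, 4.94 and 4.25, a difference of -2.29. Cd79b, a chain of the B cell receptor, was at least 2.90-fold lower, and Fcrla was above background in 1 of 3 HSC + TBI livers and not called without control 2, control 3 or HSC + TBI 1. Of 10 natural killer markers all lay below 0 with a median of -1.72 over the 8 above background on all 6 arrays, and 3 fell: Gzmm (-2.27), Klrk1 (-2.20) and Klrb1a (-1.59). None of the 3 was called without control 2, control 3, HSC + TBI 1 or HSC + TBI 2. Klrb1a was not above background on all 6 arrays, so its direction was in part set by the filter. In all 10, of which 8 were above background on all 6 arrays, the groups did not overlap, beside 35.7% of all named genes. The granule genes Prf1 (-1.65), Gzma (-1.72), Gzmb (-1.98) and Nkg7 (-1.72) were not called, at adjusted p of 0.0685 to 0.104. With only the 6 arrays of the compared groups in the fit, 8 natural killer markers were called lower. The range over rats left out was 0 to 8.

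Outside the lists, Mcpt1, a protease of mast cell granules, had signals of 6.43, 6.87 and 6.56 in control rats and was above background in 0 of 3 HSC + TBI livers, at least 7.99-fold lower (adjusted p = 1.12e-04). Cpa3, the mast cell carboxypeptidase gene, was above background in the control and TBI rats and in 0 HSC + TBI rats, at least 1.57-fold lower than control. Mcpt1 and Cpa3 entered the test only through the control arrays, so their direction was in part set by the filter. Slpi, a secreted inhibitor of leukocyte proteases, went from 11.85, 12.47 and 12.63 to 8.50, 8.58 and 8.77, a difference of -3.70 without overlap.

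In the fit of all 9 arrays, 0 markers of Kupffer cells, neutrophils, erythroid cells, endothelium, stellate cells or bile ducts were called. With only the 6 compared arrays in the fit, Clec4f and Lyz2 (Kupffer cells), Ncf1 (neutrophils), Alas2 (erythroid cells) and Oit3 (endothelium) were called lower. The 15 Kupffer cell markers had a median of -0.63, with 14 below 0, and Clec4f, a lectin of Kupffer cells, lay at 15.25, 15.73 and 15.43 in control against 14.65, 14.69 and 14.81 in HSC + TBI rats (-0.75, adjusted p = 0.0978). Cd68, a lysosomal protein of macrophages, differed by -0.63. Of 13 neutrophil markers on the array 4 could be tested, among them S100a8 (-0.89) and S100a9 (-0.68), 0 of which were called. The 5 erythroid markers spread from -1.96 for the heme synthesis gene Alas2 to 1.42 for Epb42, with Hbb at -1.59, 0 called. The endothelial markers had a median of -0.02, those of stellate cells and fibroblasts -0.12 and the 6 of bile duct cells -0.215. At an unadjusted p under 0.05 by limma stood 7 of 15 Kupffer cell, 3 of 4 neutrophil, 4 of 5 erythroid, 7 of 13 endothelial, 4 of 13 stellate and 1 of 6 bile duct markers.

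The summed marker levels show the same order of rats. The mean log2 signal of the leukocyte markers was 8.28 to 8.92 in control rats and 7.47 to 7.63 in HSC + TBI rats, and that of the natural killer markers 7.79 to 8.90 and 6.28 to 6.996. The Kupffer mean was 11.20 to 11.82 and 10.97 to 11.05. In each the groups did not overlap. Such a separation also occurred in lists with 0 calls. The mean of the acute phase genes was 14.51 to 14.73 in control and 14.89 to 15.04 in HSC + TBI rats. The means of the heat shock genes and of the stellate cell markers were separate too, while those of the hepatocyte and endothelial markers overlapped. Separation alone therefore does not single out the leukocyte, natural killer and Kupffer markers. The part that these marker levels have in the interferon, MHC and chemokine results was not tested.

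**Figure D3:**
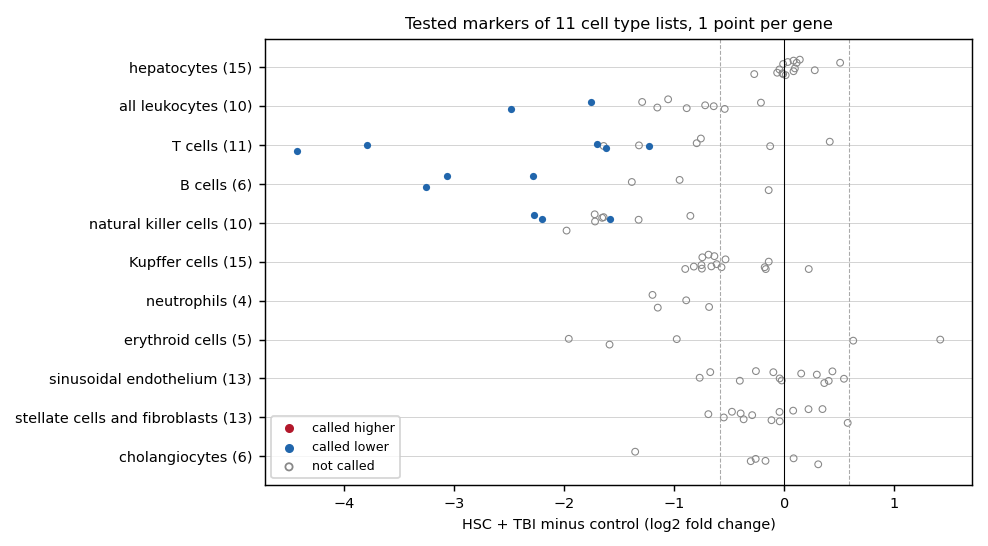
Difference of HSC + TBI from control (x axis, log2 fold change) for the tested markers of 11 cell types (y axis), with the number tested in parentheses. Called markers, filled, belong to the leukocyte, T cell, B cell and natural killer lists, while the 15 hepatocyte markers lie between -0.27 and 0.51.

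Of 17 tested lipogenic genes 1 rose and 1 fell. Gpam, the first enzyme of triglyceride assembly, went from 6.75, 6.53 and 6.95 to 8.05, 7.99 and 8.08, a difference of 1.30 that held whichever rat was left out. Pklr, the liver pyruvate kinase of glycolysis, fell by 1.28 and was not called without control 3 or any of the HSC + TBI rats. The median of the list was -0.06. Scd, the stearoyl desaturase, had a difference of -2.58 and was not called (adjusted p = 0.135), with controls from 11.73 to 14.17.

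Cholesterol synthesis genes all lay above 0. Of 23 tested members 3 rose, 0 fell and 13 had an unadjusted p under 0.05 by limma, and the median was 0.68, beside 0.017 over all genes. Insig1, which retains the sterol sensor in the endoplasmic reticulum, had signals of 13.07, 13.52 and 13.08 in control rats and 14.98, 14.92 and 14.86 after HSC + TBI. The rats did not overlap, the difference was 1.70 (adjusted p = 0.0235), and 3 other probes of the gene rose by 1.77 to 1.93. Lss, the cyclase that makes lanosterol, rose by 1.49. None of the 3 was called without control 2, control 3 or any HSC + TBI rat, nor Insig1 without control 1. Over rats left out 0 to 7 members were called, and with only the compared arrays in the fit 7 were.

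Bile acid, conjugation and iron genes gave few calls. Cyp7a1, the rate-limiting enzyme of bile acid synthesis, went from 11.82, 10.88 and 11.22 to 12.42, 12.67 and 12.66, a difference of 1.27 that was lost without control 2, control 3 or any HSC + TBI rat. Abcc2, an exporter of conjugates into bile, fell by 0.65 and was lost on leaving out any 1 of the controls, HSC + TBI 2 or HSC + TBI 3. Ugt2b1, a glucuronosyl transferase, had signals of 13.36, 13.14 and 13.09 in control rats, 13.37, 13.29 and 13.16 in TBI rats and 14.09, 14.34 and 13.97 in HSC + TBI rats. It was higher than in every other liver, by 0.93 against control (standard error 0.13, adjusted p = 0.00751, called whichever rat was left out). The direct test of HSC + TBI against TBI did not call Ugt2b1. Tfrc, the transferrin receptor that takes up iron, went from 9.83, 9.88 and 10.02 to 11.34, 11.46 and 11.35, a difference of 1.47 (standard error 0.11, adjusted p = 2.33e-04). The muscle-type carnitine palmitoyl transferase gene Cpt1b rose by 0.76 and the glucocorticoid-induced gene Tsc22d3 by 0.80, neither of them called without control 3, HSC + TBI 1 or HSC + TBI 2, nor Cpt1b without control 2.

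Clock genes held 3 calls among 15. Bmal1, the activator of the molecular clock, had signals of 4.85, 5.15 and 5.47 in control rats, 8.31, 7.46 and 8.55 in TBI rats and 6.64, 6.49 and 6.84 in HSC + TBI rats, so that the HSC + TBI rats lay between the others without overlap. Its difference from control was 1.502 (adjusted p = 0.023). Dbp, an output factor of the clock, fell by 1.07, and its level was 13.32, 13.32 and 13.33 in control, 11.13, 11.87 and 11.22 in TBI and 12.51, 12.20 and 12.04 in HSC + TBI rats. Neither Bmal1 nor Dbp was called in the direct test of HSC + TBI against TBI. Cry2, a clock repressor, fell by 0.78. None of the 3 was called without control 2, HSC + TBI 2 or HSC + TBI 3, nor Bmal1 and Dbp without control 1, Dbp and Cry2 without control 3, or Bmal1 and Cry2 without HSC + TBI 1. Per1 (0.42), Per2 (0.29) and Nr1d1 (-0.48) were not called.

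In 11 function lists with 210 tested members 0 were called by limma, while 56 had an unadjusted p under 0.05. Among them were acute phase proteins, complement and coagulation, cytochrome P450 families, Nrf2 targets, amino acid breakdown and the stress programs. Some members stood far from 0 all the same: Chac1, a stress-induced glutathione-degrading enzyme, at 3.19 (adjusted p = 0.0577), Nr4a1, an immediate early nuclear receptor, at 2.39 (adjusted p = 0.0845) and Upp2, a uridine phosphorylase, at -3.36 (adjusted p = 0.059). In Chac1 the controls ranged from 5.996 to 8.66 and the HSC + TBI rats from 9.01 to 11.48. The acute phase genes Kng1 (1.23) and Orm1 (1.11) did not overlap between groups and were not called. A miss of the threshold does not show that these genes were at control level.

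**Figure D4:**
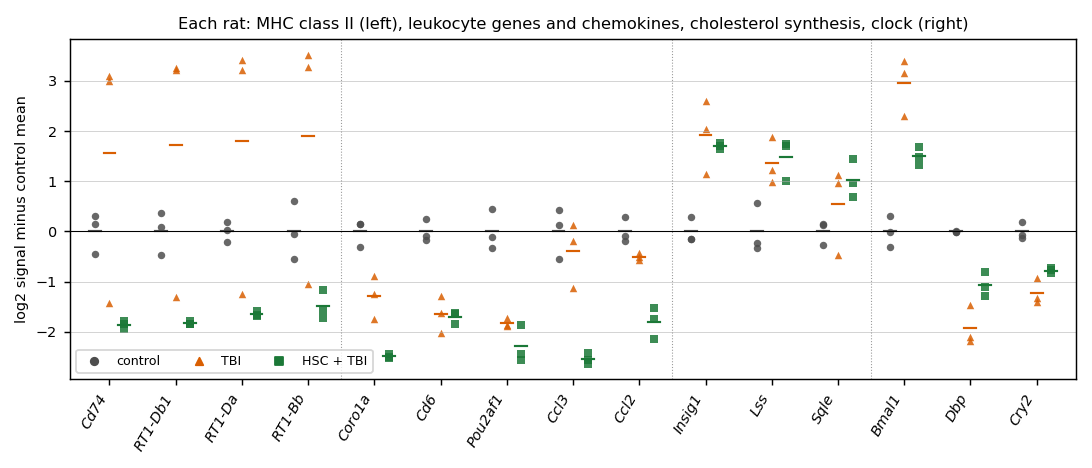
Log2 signal of 15 genes in each of the 9 rats, as the difference from the control mean (y axis), with a short bar at each group mean. The MHC class II genes split the TBI rats, with TBI 2 and TBI 3 on top, and the HSC + TBI rats lie together below the controls, while for Bmal1 and Dbp they lie between control and TBI. Neither Bmal1 nor Dbp was called against TBI.

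The largest increases outside the lists were of varied function. Abcb1b, a drug efflux pump, went from 5.05, 4.996 and 4.44 to 8.66, 7.92 and 7.77, a difference of 3.28. Nrg1, a growth factor for ErbB receptors, rose by 2.28 and Aldh1a1, a retinaldehyde dehydrogenase, by 1.79. Vxn rose by 3.24. Nrcam, a neuronal adhesion molecule, was not well above background in any control liver and stood at 5.61, 6.10 and 6.27 after HSC + TBI, at least 4.42-fold higher (adjusted p = 3.47e-05). Foxj1, a factor of motile cilia, and Cfap45, a ciliary protein, were both at least 2.21-fold higher, and Ptprv at least 2.59-fold. Cfap45 was not called without control 2, control 3 or HSC + TBI 1, and Ptprv needed control 1, control 2, TBI 2 and each of the HSC + TBI rats. Nrcam, Foxj1, Cfap45 and Ptprv entered the test only through the HSC + TBI arrays, so their direction was in part set by the filter.

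How the same genes stood after TBI without HSC was read from the TBI rats in the same fit. Both irradiated groups are compared with the same 3 control rats, so their differences from control are given side by side and their likeness is not a result. TBI against control called 1655 probes (7.02%) and 681 named genes (7.52%). Cdkn1a differed from control by 5.37 after TBI and 4.88 after HSC + TBI, Gdf15 by 4.26 and 4.05, Mgmt by 2.26 and 2.22, Cdk1 by -3.50 and -3.33 and Rsad2 by -3.70 and -3.90. The list medians were 1.02 and 1.09 for the p53 targets, -0.93 and -0.96 for the cell cycle list, and -1.24 and -1.81 for the interferon list.

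The direct test of HSC + TBI against TBI called 63 probes of all tested (0.267%), 22 named genes (0.243%) and 9 of the 884 probes called against control (1.02%), 3 higher and 6 lower than in TBI rats. By the same fit, 273 of the 884 had an unadjusted p under 0.05. For the others the test called no difference between the irradiated groups, which is not evidence that they were equal. In 7 named genes the difference was called, 3 of them (Cpa3, Slc9b2 and Cdca2) from signals near background. Pla2g7, the plasma enzyme that inactivates platelet-activating factor, had signals of 6.06, 6.31 and 6.37 in control, 6.16, 6.90 and 6.46 in TBI and 5.09, 4.75 and 4.59 in HSC + TBI rats. It fell against control by 1.44 and differed from TBI by -1.70 (adjusted p = 0.0191). Ccl2 differed from TBI by -1.29 and Cytip, a binding partner of cytohesin in lymphoid cells, by -1.69 (both at adjusted p = 0.0330).

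Lama3, a laminin chain of basement membranes, stood at 5.63, 5.50 and 5.40 in control, 5.21, 5.11 and 5.29 in TBI and 6.16, 6.22 and 6.37 in HSC + TBI rats. It was highest after HSC + TBI in every rat, with a difference of 0.74 from control and 1.05 from TBI. Cpa3 differed from TBI by -1.97, with no HSC + TBI liver above background. Its TBI signals were 3.73, 3.64 and 3.29. The lowest signals well above background on the HSC + TBI arrays were 3.65, 3.56 and 3.66, so no difference is drawn for Cpa3. Slc9b2 (1.85) and Cdca2 (1.26), the first a sodium and proton exchanger and the second a chromatin regulator of dividing cells, were called higher than in TBI rats. Their signals were not well above background on any TBI array, nor for Slc9b2 on any HSC + TBI array, so these sizes are not folds of measured levels and no difference is drawn from them. The direct count depended on the TBI rats: it was 238 without TBI 1, 27 without TBI 3 and 1 without TBI 2, and also 5 without control 3 and 3 without HSC + TBI 3.

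**Figure D5:**
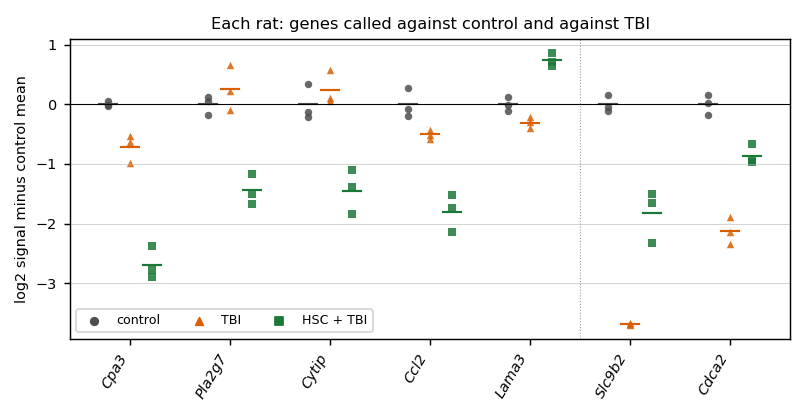
Log2 signal in each of the 9 rats, as the difference from the control mean (y axis), for the 7 named genes called both against control and against TBI. The genes were selected by that call, and the HSC + TBI rats do not overlap with the TBI rats in any of them. Slc9b2 and Cdca2, right of the dotted line, were not well above background on any TBI array, nor Cpa3 on any HSC + TBI array.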

How the data were processed

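RNA from 9 rat livers was hybridized to one-colour Agilent arrays, 1 per rat. The authors scanned them with Agilent Feature Extraction 10.7 (per the labels), and the deposited processed-signal intensities are background-subtracted by that software. The authors' deposited log2 table, quantile-normalized by them, was used only as an alternative. No column of another sample was present. Here processed intensities were set to at least 1, taken to log2 and quantile-normalized over the 9 arrays, outlier spots were dropped and spots of a probe averaged. A fit of the 3 group means in limma 3.58.1 (R 4.3.3) was adjusted by Benjamini-Hochberg over the 23565 tested probes. Calls needed an adjusted p under 0.05 and 1.5-fold, and an adjusted p refers to this fit throughout. Values from 3 arrays a group limit the precision, and an exact permutation test of 3 against 3 could not go below 0.1. At-least folds set the bright group's mean against the lowest signal well above background on each dim array, or the probe's own where higher. Genes given this way entered the test only through the bright group. The fit was tested on simulated data.

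Genes were represented by their brightest tested probe. Named by rule were the 10 largest increases and decreases that held whichever rat was left out, up to 6 called members of each list, the first members of each cell type list, and the largest at-least folds. Other genes named beside these are list members chosen to show the spread of their list after their values were seen. The members and lists were chosen with earlier results of these data known. Alternatives changed the normalization, background correction, filter, outlier spots, samples, test, replicate block and slide block. The deviations of same-numbered rats correlated at 0.00566, 0.0215 and 0.02 between control and HSC + TBI, at -0.172, 0.0264 and -0.0124 between TBI and HSC + TBI, and at 0.224, 0.144 and 0.117 between control and TBI, so the numbers were not taken to pair the rats of the first 2 comparisons, and TBI against control was also fitted with the block. Promoters were the 250 bases upstream of the start in RefSeq for GRCr8, matched by gene identifier. Where a gene had several starts, only the first by chromosome and coordinate was used. Results for a few list members are not reported here.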

Additional observations from a re-analysis of the deposited data

Results flagged for a closer look

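The direct test of HSC + TBI against TBI, adjusted over all tested probes by limma, called 7 of the named genes that were also called against control. Below TBI were Cpa3 by a log2 difference of -1.97 (adjusted p = 0.0117), Pla2g7 by -1.70 (adjusted p = 0.0191), Cytip by -1.69 (adjusted p = 0.0330) and Ccl2 by -1.29 (adjusted p = 0.0330). Above TBI were Slc9b2 by 1.85, Cdca2 by 1.26 and Lama3 by 1.05 (each at adjusted p = 0.0191). All 3 HSC + TBI rats showed the direction against all 3 TBI rats in each of the 7, which is no separate support, as the 7 were selected by this call. Whichever of the 9 rats was left out, Cpa3 was still called, while Slc9b2 was called in 7 of the 9 fits (not without TBI 2 or HSC + TBI 1), Lama3 in 6, Pla2g7 and Cdca2 in 5, and Cytip and Ccl2 in 3. Cpa3 was above background on 0 HSC + TBI arrays, and its TBI signals lay near the lowest level well above background there. No difference between the irradiated groups is drawn from its call. Slc9b2 was above background on 0 TBI and 0 HSC + TBI arrays and Cdca2 on 0 and 1, and both entered the test only through the controls, so for these 2 no difference between the irradiated groups is drawn from the calls.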

How the results depend on the processing

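Against control, 884 probes were called (329 higher, 555 lower). Normexp background correction gave 506 (158 and 348), no filter on dim probes 600 (193 and 407), the methods' t-test 1970 (759 and 1211) unadjusted and 114 (50 and 64) after Benjamini-Hochberg, and slide as a random block 2499 (1040 and 1459). The estimated correlation within a slide was -0.341, and slide and group remain inseparable. The 75th percentile shift, the authors' values, only probes above background on all 6 arrays, kept outlier spots, only the 6 arrays and no minimum fold gave 687 to 1290. With the replicate block it was 881, of which 715 were shared, and for TBI against control, added after seeing the data, 1512 in place of 1655. Leaving out each rat gave 361 to 1179 calls, 109 to 430 of them higher and 252 to 790 lower. Against TBI, 9 of the called probes differed, and it was 15 with the 75th percentile shift, 0 with normexp, 18 with the replicate block, 600 with the slide block and 1 to 238 with a rat left out. The direct comparison was not run with only the 6 arrays, which hold no TBI rat. No called gene among those named by rule changed direction, while Vsig4, not called at -0.17, stood at 0.03 without control 2. The cause of these shifts was not tested. Probes near background have the least certain values.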

Other observations

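Some called genes outside the lists, chosen after their values were seen, belong to mast cells and granulocytes. Mcpt8l2, a mast cell protease, stood at 4.78, 5.38 and 5.26 in control rats and was above background in 0 HSC + TBI rats, at least 2.87-fold lower, and the chymase gene Cma1 was at least 1.35-fold lower. Fcnb, a ficolin of myeloid cells, went from 8.62, 8.85 and 8.52 to 6.30, 7.03 and 6.61, and Retnlg, a resistin-like protein of granulocytes, was at least 2.34-fold lower. Each of these was called whichever rat was left out. Mcpt8l2, Cma1 and Retnlg entered the test only through the control arrays, so their direction was in part set by the filter. No list of mast cell genes was tested.

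Further genes of the cell cycle lay on both sides. E2f1, which activates replication genes, went from 6.84, 6.87 and 7.07 to 4.52, 4.84 and 4.92, a difference of -2.17 (standard error 0.18), and the linker histone gene H1f5 fell by 2.10. Mybl2, a partner of cell cycle gene activation, rose by 2.86, but was lost on leaving out any 1 of the controls, HSC + TBI 1 or HSC + TBI 3. Nfe2l2, encoding Nrf2, rose by 0.91 in every HSC + TBI rat (12.13 to 12.26 against 11.18 to 11.40), while 0 of the 19 tested Nrf2 targets were called by limma (9 at an unadjusted p under 0.05).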
